A study of Mus musculus with 4 samples.

Results

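*Lmx1b*, *C130021I20Rik* and *Lmx1a* are 3 of the 23537 genes in a table of RNA read counts from *Mbd4*-/- (KO) and wild-type (WT) mouse embryonic fibroblasts (MEFs). The rows were picked by gene name: *Lmx1b*, the noncoding gene *C130021I20Rik* that lies next to it on chromosome 2, and *Lmx1a*, the paralogue of *Lmx1b* on chromosome 1. They were picked with the KO and WT counts already known, so the difference between genotypes in these genes is described below without a test. MEFs are primary connective tissue cells cultured from mouse embryos, here of the C57BL/6 strain and taken at day 12.5 after conception. Each genotype had 2 libraries of total RNA depleted of ribosomal RNA, and the labels do not say whether the libraries of a genotype came from separate embryos, so every p-value measures only the spread between these libraries. Neither the *Mbd4* allele nor the number of embryos could be taken from the labels.

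*Lmx1b* and *Lmx1a* encode transcription factors with a pair of LIM domains, which bind partner proteins, and a homeodomain, which binds AT-rich DNA. In the limb bud, WNT7A from the dorsal ectoderm switches on *Lmx1b* in the mesenchyme below it, and LMX1B gives that mesenchyme its dorsal identity; human *LMX1B* mutations cause nail-patella syndrome, with changes in nails, joints, kidney and eye. *Lmx1b* is also used in kidney podocytes, in the mesenchyme around the eye and, with *Lmx1a*, in the roof plate of the neural tube and in dopaminergic neurons; *Lmx1b* is needed for serotonergic neurons. *C130021I20Rik* is annotated as a long intergenic noncoding RNA (lincRNA) with no role assumed here.

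In mm9, *Lmx1b* (ENSMUSG00000038765) runs from 33496031 down to 33416485 on the minus strand of chromosome 2, a span of 79.5 kb with 4843 bases of exon. *C130021I20Rik* (ENSMUSG00000052951) runs from 33496713 to 33501869 on the plus strand, a span of 5.16 kb with 4135 bases of exon. The genes thus stand head to head, with 681 bases between them that hold 95 CG dinucleotides and are 77.5% G or C. *Lmx1a* (ENSMUSG00000026686) lies at 169619370 to 169778872 on the plus strand of chromosome 1, with 3393 bases of exon. None of the 3 overlapped another gene of this annotation.

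The RefSeq promoter windows, from 250 bases before to 50 bases after each start, are shown because they hold the start region from which *Lmx1b* and *C130021I20Rik* are transcribed in opposite directions, beside that of the paralogue. Capitals mark every CG dinucleotide, the site of cytosine methylation, and each window is written 5′ to 3′ on the strand of its gene. In GRCm38.p6 the *Lmx1b* window is chr2:33641049-33641348 on the minus strand, the *C130021I20Rik* window is chr2:33640943-33641242 on the plus strand and the *Lmx1a* window is chr1:167689308-167689607 on the plus strand.
Lmx1b: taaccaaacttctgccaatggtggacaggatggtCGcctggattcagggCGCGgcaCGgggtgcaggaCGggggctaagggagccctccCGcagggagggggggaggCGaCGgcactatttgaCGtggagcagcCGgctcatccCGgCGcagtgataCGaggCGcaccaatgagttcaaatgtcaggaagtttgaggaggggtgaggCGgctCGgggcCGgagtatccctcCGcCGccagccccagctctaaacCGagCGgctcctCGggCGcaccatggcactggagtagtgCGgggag
C130021I20Rik: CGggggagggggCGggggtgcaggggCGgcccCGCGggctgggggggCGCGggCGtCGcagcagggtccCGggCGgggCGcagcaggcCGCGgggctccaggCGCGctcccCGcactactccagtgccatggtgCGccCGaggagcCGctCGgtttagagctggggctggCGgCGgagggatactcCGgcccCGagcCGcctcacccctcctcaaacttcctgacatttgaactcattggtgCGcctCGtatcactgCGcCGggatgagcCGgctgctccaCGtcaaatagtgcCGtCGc
Lmx1a: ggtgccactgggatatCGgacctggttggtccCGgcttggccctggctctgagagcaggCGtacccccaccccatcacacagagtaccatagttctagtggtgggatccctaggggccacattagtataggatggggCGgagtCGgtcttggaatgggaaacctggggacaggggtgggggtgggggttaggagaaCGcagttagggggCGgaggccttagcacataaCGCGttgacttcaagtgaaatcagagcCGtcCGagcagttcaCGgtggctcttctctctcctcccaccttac

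The first 2 windows share 194 bases on opposite strands. RefSeq places the start of *Lmx1b* 587 bases nearer to *C130021I20Rik* than the mm9 annotation does, so that the starts lie 95 bases apart by RefSeq and 682 bases apart by the mm9 annotation. The *C130021I20Rik* window held 34 CG dinucleotides, more than 92.3% of the 32851 mouse promoter windows, and the *Lmx1b* window held 24, more than 80.0% of them. The *Lmx1a* window held 12, more than 60.4% of them, against a median of 7 over all windows. The G and C share followed the same order, 73.3% for *C130021I20Rik*, 65.7% for *Lmx1b* and 59.3% for *Lmx1a*, with a median of 52.7%. All 3 windows were therefore denser in CG than the typical window, that of *C130021I20Rik* most of all.

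A search of both strands for 4 motifs found no TATAAA and no TAATTA in any of the 3 windows; these occur in 13.6% and 5.29% of all windows. CCAAT was found in the *Lmx1b* window in 2 places and in the *C130021I20Rik* window in 1, and 37.4% of all windows hold it. GGGCGG was found in 3 places for *C130021I20Rik*, in 2 for *Lmx1a* and in none for *Lmx1b*, and 35.7% of all windows hold it. Matches in the shared bases count for both genes of the pair.

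The libraries held 45223089 and 39108275 counts for KO and 47567835 and 42796997 for WT. *Mbd4* itself had 373 and 302 counts in KO against 663 and 630 in WT, a fall of 0.99 on the log2 scale (SE 0.11, edgeR adjusted p = 2.8e-06), so its RNA was lower but not absent in the libraries labelled KO. Of the fibroblast markers, 12 of 12 were in the table, 8 were lower in KO and none was higher, and their summed level was 13564 and 14693 CPM (counts scaled by the library total after TMM adjustment) in KO against 25605 and 23015 CPM in WT. The endothelial, muscle and neural crest or glial markers summed to at most 3.03 CPM in any library, macrophage and epithelial markers to at most 5.99 CPM. Cartilage markers (5 of 6 in the table, 4 lower) summed to 127 and 145 CPM in KO against 463 and 423 in WT, and tendon markers (3 of 3, with *Tnmd* and *Scx* moving in opposite directions) to 272 and 264 against 106 and 92.1. The part of these shifts in the values below was not tested. Fewer cells of a type and less RNA per cell cannot be told apart in these bulk libraries.

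*Lmx1b* was counted 188 and 172 times in KO, and 1 and 0 times in WT. KO libraries were both high and close to each other, WT libraries were both at the edge of detection, and the genotypes did not overlap. The KO level was 4.06 ± 0.154 CPM (SD, n = 2), and the summed counts put KO at 348 times WT (95% counting interval 62.0 to 13776). The only WT read came from WT replicate 1: without that library the WT count is 0, and against a floor of 3 counts over the group the ratio is at least 55.2. Intervals and floors cover counting error only, and the fold is thus known only as large, not as a number.

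*C130021I20Rik* had 539 and 552 counts in KO and 1 and 0 in WT. The on and off pattern was that of *Lmx1b*, with more reads: 12.4 ± 1.45 CPM in KO (SD, n = 2) and a ratio of 1054 (189 to 41674). Without WT replicate 1, which again held the only WT read, the ratio is at least 167. *Lmx1a* had 1 and 1 counts in KO and 0 and 0 in WT, which is below the floor of 3 counts in both genotypes, so no fold is given and it did not enter the test across genes. The paralogue was not detectable above this floor in either genotype; 3 counts amount to 0.0631 to 0.0732 CPM in these libraries. None of the 5152 different 50-base words in *Lmx1b* transcripts occurred in *Lmx1a* transcripts with 2 or fewer mismatches, and the closest had 5.

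Measured per length, *Lmx1b* reached 0.817 and 0.862 CPM per kb of exon in the KO libraries, above 46.6% and 46.9% of the 23393 genes with a known length. *C130021I20Rik* reached 2.74 and 3.24 CPM per kb, above 57.2% and 58.9% of genes. Both genes thus went from the bottom of the table to its middle, and neither became one of its abundant RNAs. For comparison, the largest WT value of the pair was 0.0054 CPM per kb.

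The balance within the pair was not used in picking the genes. *Lmx1b* took 25.9% of the 727 reads of the pair in KO replicate 1 (95% Clopper-Pearson interval 22.7 to 29.2) and 23.8% of the 724 reads in KO replicate 2 (20.7 to 27.0). The intervals overlap, and the difference between the KO libraries was not tested. The noncoding gene therefore gave 2.87 and 3.21 reads for each read of *Lmx1b*, or 3.36 and 3.76 per kb of exon. In WT the balance could not be measured, with 1 read of each gene.

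**Figure D1:**
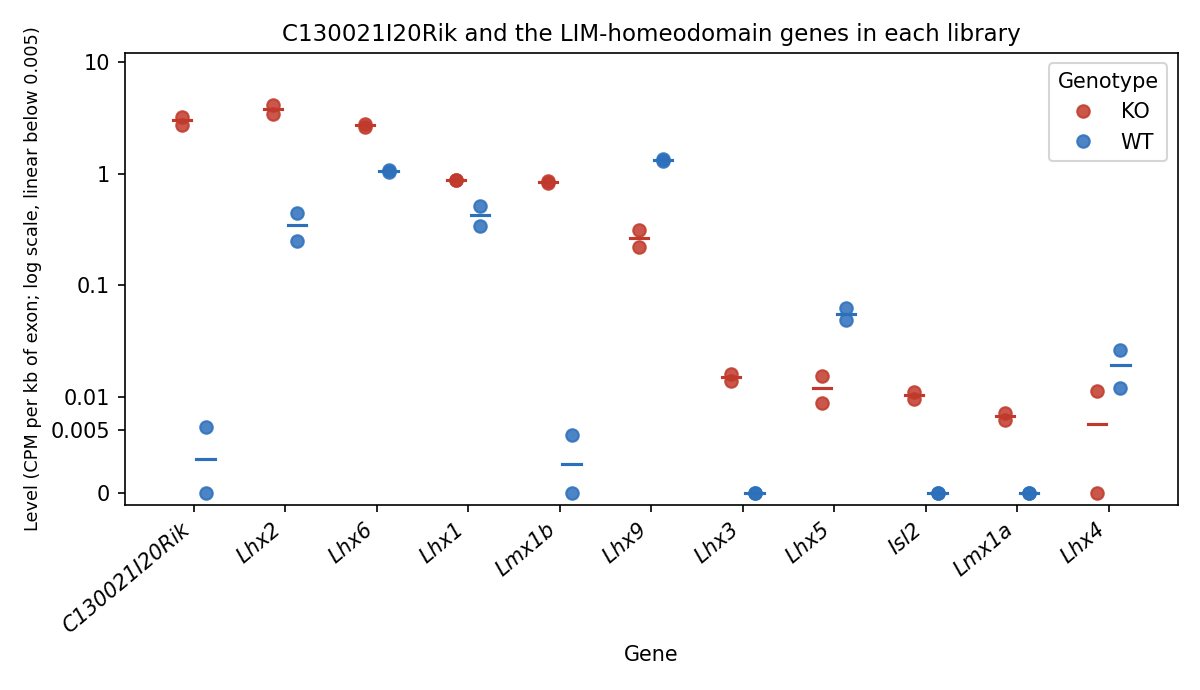
Level of *C130021I20Rik* and of the LIM-homeodomain genes in CPM per kb of exon (log axis, linear below 0.005), with a point for each library and a bar at the mean of each genotype. *Lmx1b* and *C130021I20Rik* sit at 0.817 to 3.24 in KO and at or below 0.0054 in WT, and *Lmx1a* does not exceed 0.00715 in any library.

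Other members of the LIM-homeodomain family give the setting of the change in *Lmx1b*. Of 10 listed relatives 8 were in the table and 4 passed the filter on low counts; 3 of these 4 were higher in KO and 1 was lower. Over all 15538 genes tested, 34.3% were higher in KO, 32.5% were lower and 66.8% were either (adjusted p under 0.05), so a call alone is common here. These shares are the background for every count of called genes below. *Lhx2*, which acts in limb outgrowth and forebrain, had 504 and 533 counts in KO and 62 and 32 in WT, a rise of 3.42 on the log2 scale (SE 0.21, adjusted p = 9.15e-09). *Lhx6*, a gene of cortical interneurons and jaw mesenchyme, had 627 and 511 counts against 229 and 199 (log2 1.36, SE 0.12), and *Lhx1*, needed for head and kidney formation, had 173 and 149 against 63 and 87 (log2 1.04, SE 0.21). In all 3, unlike in *Lmx1b*, both WT libraries held at least 32 reads.

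*Lhx9*, a gene of gonad and limb mesenchyme and the closest relative of *Lhx2*, moved the other way, with 83 and 50 counts in KO and 322 and 308 in WT, and fell by 2.30 on the log2 scale (SE 0.19). *Lhx3*, *Lhx4*, *Lhx5* and *Isl2*, best known from motor neurons and other neurons, had between 0 and 7 counts in every library. *Lhx8* and *Isl1* were not analysed here. By mean level per kb in KO the order was *Lhx2* (3.78), *Lhx6* (2.70), *Lhx1* (0.880), *Lmx1b* (0.839) and *Lhx9* (0.267). *Lhx1* and *Lmx1b* rested on 149 to 188 counts a library, and their order was not resolved at that depth. In WT the order was *Lhx9* (1.33), *Lhx6* (1.05), *Lhx1* (0.428) and *Lhx2* (0.347), with the library values of the last 2 overlapping and *Lmx1b* at 0.0023.

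LIM-homeodomain proteins act through LIM domain-binding adaptors (LDB), single-stranded DNA-binding partners (SSBP) that stabilise them, the ubiquitin ligase RLIM that removes them, and LIM-only proteins (LMO) that compete for them. Of 10 such genes 8 were in the table and all 8 were tested, with 4 higher and 4 lower and a median log2 fold change of 0.21 against 0.02 over all genes tested. *Ldb1*, the main adaptor, had 5718 and 5313 counts in KO and 3782 and 3374 in WT (log2 0.58, SE 0.06). *Ssbp3* (log2 0.81) and *Ssbp2* (0.68) were higher too, and *Ldb2* went from 2 counts over the WT libraries to 24 over the KO libraries, a ratio of 11.6 (2.88 to 101). The main adaptor was thus well covered in both genotypes.

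*Lmo1* fell by 2.84 on the log2 scale, from 204 and 130 counts in WT to 30 and 18 in KO, and *Lmo4*, the abundant member, fell by 0.44. *Rlim* and *Ssbp4* fell by 0.17 and 0.28, and both calls were lost when the fit used library totals, which left 2 genes lower. *Lmo2* and *Lmo3* were not analysed here.

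Of the genes that place *Lmx1b* in the limb bud, *Wnt7a*, *En1* and *Fgf4* were at or near the floor. *Wnt7a*, the dorsal signal, had 0 and 0 counts in KO and 2 and 0 in WT. *En1*, the ventral factor that holds *Wnt7a* back, had 1 and 2 counts in KO and 0 and 1 in WT, and *Fgf4* of the apical ridge had at most 2 in any library. *Bmp2*, *Shh* and *Fgf8* were not analysed here. Neither the inducer nor the ventral repressor of the dorsal program was therefore detectable above the floor in either genotype.

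Of 13 genes on this dorsoventral and signalling list 10 were in the table and 7 were tested, with 4 higher, 2 lower and a median of 0.86. *Lrp6*, a WNT co-receptor and the most abundant of the list, had 27670 and 24948 counts in KO against 11720 and 11356 in WT, a rise of 1.14 (SE 0.06). *Rspo2*, a WNT potentiator needed in the limb, rose by 0.95, *Bmp4* by 0.86 and *Bmp7*, at 27 and 53 against 10 and 4 counts, by 2.47 (SE 0.52). *Grem1*, a BMP antagonist of the posterior limb bud, dropped from 3478 and 3190 counts in WT to 327 and 235 in KO and fell by 3.62 on the log2 scale (SE 0.09), and *Fgf10*, the mesenchymal outgrowth signal, fell by 1.17. *Bmpr1a*, a BMP receptor, did not pass the test (log2 0.00, SE 0.06), but was called higher, at 0.15, with library totals.

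Limb mesenchyme transcription factors gave the longest list, with 21 of 26 in the table and 18 tested. Of these, 10 were higher, 3 were lower and 5 did not pass, with a median of 0.48, and 6 were higher at the stricter limits of adjusted p under 0.01 and log2 fold change over 2, which 5.79% of all genes tested passed in this direction. *Hoxa13*, which patterns the digits, had 516 and 415 counts in KO and 1 and 0 in WT, a ratio of 900 (161 to 35568). *Shox2*, a factor of the proximal limb, went from 1 count over WT to 30 over KO (ratio 29.0, 4.82 to 1183), and *Msx1*, a mesenchymal homeobox gene, from 39 and 29 counts to 762 and 669, a rise of 4.34 (SE 0.16). *Hoxa13* was the only gene of the list with both the WT floor and the KO depth of *Lmx1b*.

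*Prrx1*, a general marker of limb mesenchyme and the most abundant gene of the list, rose by 1.92 (SE 0.08), with 25245 and 21228 counts in KO and 5567 and 6268 in WT. *Pax9* of the anterior limb and jaw fell by 1.37, *Tbx3* by 0.79 and *Meis2*, a proximal factor, by 0.60. *Tbx5*, the forelimb identity gene, had 2 and 6 counts in KO and 1 and 3 in WT, and *Pitx1* of the hindlimb had 0 and 1 in KO and none in WT. Forelimb and hindlimb identity genes were therefore both near 0, and the list's factors moved in both directions. *Tbx4*, *Hand2*, *Hoxd10*, *Hoxd12* and *Hoxd13* were not analysed here.

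Kidney podocytes, the filter cells of the glomerulus, use *Lmx1b* throughout life. Of 14 podocyte and glomerular genes 11 were in the table and 9 were tested, with 5 higher, 4 lower and a median of 0.18; without KO replicate 2 the higher count was 3. The type IV collagen genes *Col4a3* and *Col4a4* of the glomerular basement membrane had 3 and 5, and 7 and 5, counts in KO against 118 and 70, and 198 and 103, in WT, falls of 4.55 (SE 0.42) and 4.66 (SE 0.39). *Podxl*, the podocyte surface sialomucin, rose by 2.67 (SE 0.24) and the laminin gene *Lamb2* by 1.25 (SE 0.06). *Cd2ap*, a slit diaphragm adaptor, fell by 0.71. *Nphs1*, which encodes nephrin and defines the podocyte, had at most 6 counts in any library and *Wt1* at most 7, so the defining markers were near 0 in both genotypes.

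Of 11 roof plate genes 10 were in the table and 7 were tested, and the 4 that were higher and the 3 that were lower all passed the stricter limits, which 5.79% and 3.15% of genes tested passed upwards and downwards. *Gdf7*, which marks the roof plate, had 46 and 53 counts in KO and none in WT, at least 31.9-fold higher. The zinc finger genes *Zic4* and *Zic1* rose by 2.73 (SE 0.12) and 2.05 (SE 0.07); they overlap each other on opposite strands, so reads may have been shared. *Rspo3*, *Bmp6* and *Rspo1*, secreted WNT and BMP pathway ligands of the same structure, were lower; *Rspo3* had 5 and 10 counts in KO against 95 and 139 in WT, *Bmp6* fell by 3.27 and *Rspo1* by 2.84. *Wnt1*, a gene that *Lmx1b* and *Lmx1a* share a domain with in the brain, had 0 and 0 counts in KO and 6 and 1 in WT, *Wnt3a* had 1 count in all and *Pax3* at most 4 in any library. *Pax7* was not analysed here. The named genes therefore split, with *Zic4*, *Zic1* and *Gdf7* up and *Rspo3*, *Rspo1* and *Bmp6* down.

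Of 18 dopaminergic and serotonergic neuron genes 16 were in the table and 9 were tested, with 5 higher, 3 lower and a median of 0.71; the higher count was 3 in DESeq2 and 3 without KO replicate 2. *En2*, an engrailed factor of the midbrain and hindbrain, had 583 and 539 counts in KO and 2 and 1 in WT, a ratio of 361 (123 to 1755). *Gata3*, of the serotonergic lineage, rose by 1.98 (SE 0.33). *Gata2*, the most abundant of the list over the 4 libraries though below *En2* in KO, fell by 0.69 and *Nr4a2* (Nurr1) by 0.62.

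The transmitter genes themselves were low in counts, but they did not all stay at the floor. *Ddc* went from 27 counts over the WT libraries to 62 over the KO libraries, a rise of 1.15 (SE 0.37). *Th*, the rate-limiting enzyme of dopamine synthesis, had 2 and 4 counts in KO and 0 and 0 in WT, and *Slc6a3*, *Slc18a2*, *Pitx3* and *Slc6a4* had at most 6 in any library. *Tph2*, the serotonin-synthesis enzyme, had 3 and 0 counts in KO and 13 and 11 in WT, a WT to KO ratio of 8.28 (2.51 to 43.0), and its call was lost in DESeq2 and without KO replicate 2. Neuron markers summed to 33.1 to 36.8 CPM in all 4 libraries, but the 3 that were tested moved apart, all past the stricter limits. *Stmn2* and *Syt1* rose by 3.38 (SE 0.12) and 5.87 (SE 0.35), with *Syt1* at 168 and 149 counts in KO against 2 and 3 in WT, and *Tubb3* fell by 2.82 (SE 0.14). *Elavl3* and *Elavl4*, RNA-binding proteins that define neurons, had 3 counts or fewer in every library. The part of these markers in the values of the list was not tested. *Fev* and *Nkx2-2* were not analysed here.

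Periocular mesenchyme and cornea, the eye tissues that need *Lmx1b*, were represented by 8 genes, all in the table and 6 tested, with 1 higher, 2 lower and a median of -0.12. *Foxc1*, a forkhead factor of this mesenchyme, had 10887 and 9320 counts in KO against 5188 and 5074 in WT, a rise of 0.93 (SE 0.06). *Lum* and *Dcn*, small leucine-rich proteoglycans of the corneal stroma and of fibroblasts in general, had 0 and 1, and 5 and 7, counts in KO against 142 and 131, and 1349 and 1123, in WT. *Lum* was thus at a WT to KO ratio of 283 (50.3 to 11200) and *Dcn* fell by 7.70 (SE 0.19), close to the mirror image of *Lmx1b*. *Foxc2* and *Cyp1b1* were among the 3 that did not pass the test, and without WT replicate 1 the lower count was 4. *Kera* was listed with 3 counts in 1 WT library and none elsewhere.

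**Figure D2:**
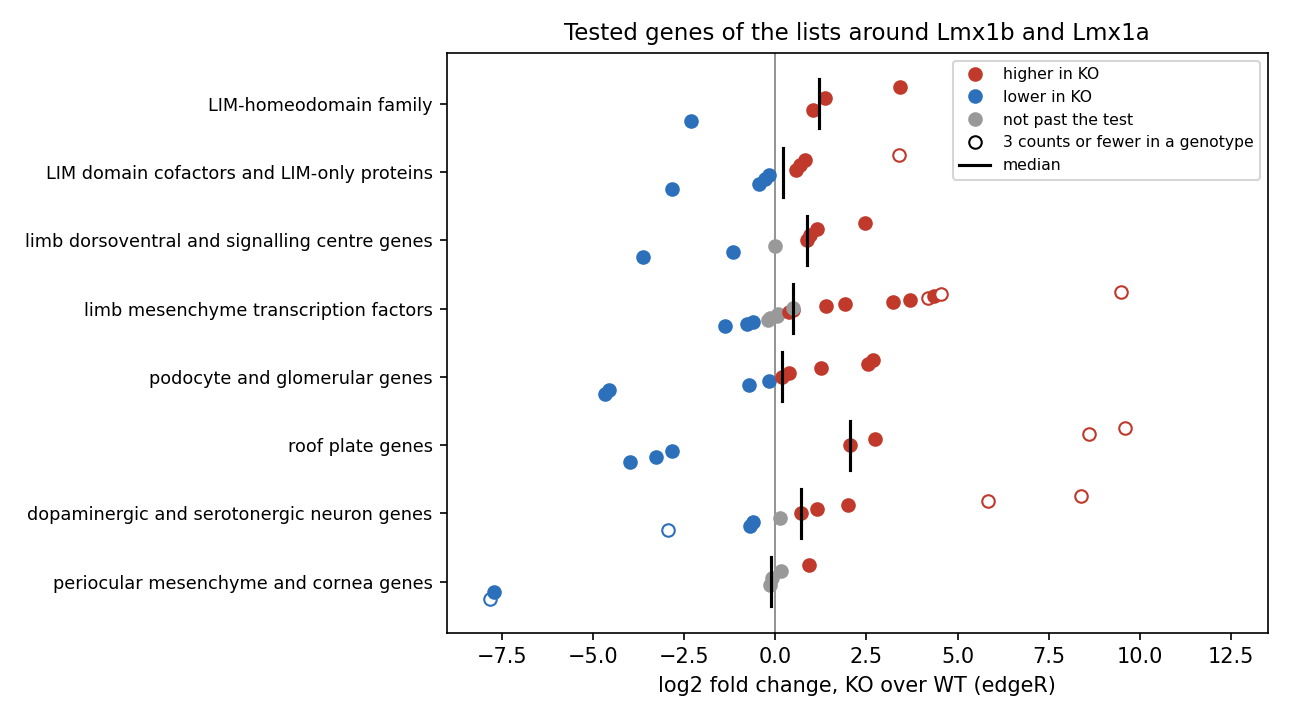
The log2 fold change (KO over WT) of every tested gene in the 8 lists, with a point for each gene and a black bar at the list's median. Open points mark genes with 3 counts or fewer in a genotype, whose fitted fold depends on the fit's prior count; medians run from -0.12 for periocular and cornea genes to 2.05 for roof plate genes.

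Position on the chromosome was used to ask how far the difference in *Lmx1b* and *C130021I20Rik* extended. Of the 10 nearest genes on each side 16 were tested, with 3 higher, 4 lower and 9 not past the test, a median of -0.13, and none past the stricter limits in either direction. Over all genes tested 66.8% were called, and only 5.79% and 3.15% passed the stricter limits upwards and downwards. With 16 genes, none past those limits is therefore little to go by. The nearest gene, *Gm13529*, is annotated as a pseudogene and lies 6039 bases beyond *C130021I20Rik*. It had 19 and 14 counts in KO and 20 and 16 in WT (log2 -0.17, SE 0.39). *Fam125b*, a subunit of the ESCRT-I sorting complex 83603 bases beyond *C130021I20Rik*, had 1022 and 995 counts against 705 and 615, a rise of 0.57 (SE 0.09). On the other side the nearest, *Zbtb43*, a zinc finger gene 92405 bases from *Lmx1b*, had 1387 and 1218 against 1471 and 1264 counts (log2 -0.12, SE 0.08, adjusted p = 0.188). The neighbours were thus read in both genotypes, at differences far below the lower bound of either member.

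Further out, *Slc2a8*, a glucose transporter gene, and *Pbx3*, a homeodomain cofactor, rose by 0.83 and 0.63. *Angptl2*, a secreted angiopoietin-like protein, had 16734 and 12489 counts in WT and 5476 and 4511 in KO, and fell by 1.59. *Angptl2* overlaps *Ralgps1*, and *Rpl12* overlaps *Lrsam1*, on the opposite strand, so reads of these genes may have been shared. *Hspa5*, the endoplasmic reticulum chaperone BiP, fell by 0.88, *Rpl12*, a ribosomal protein gene, by 0.76 and *Gapvd1* by 0.43. Of the flanking genes that were not tested, *SNORA48*, *Gm13528*, *A630071L07Rik* and *Gm13404* had at most 1 count in any library.

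**Figure D3:**
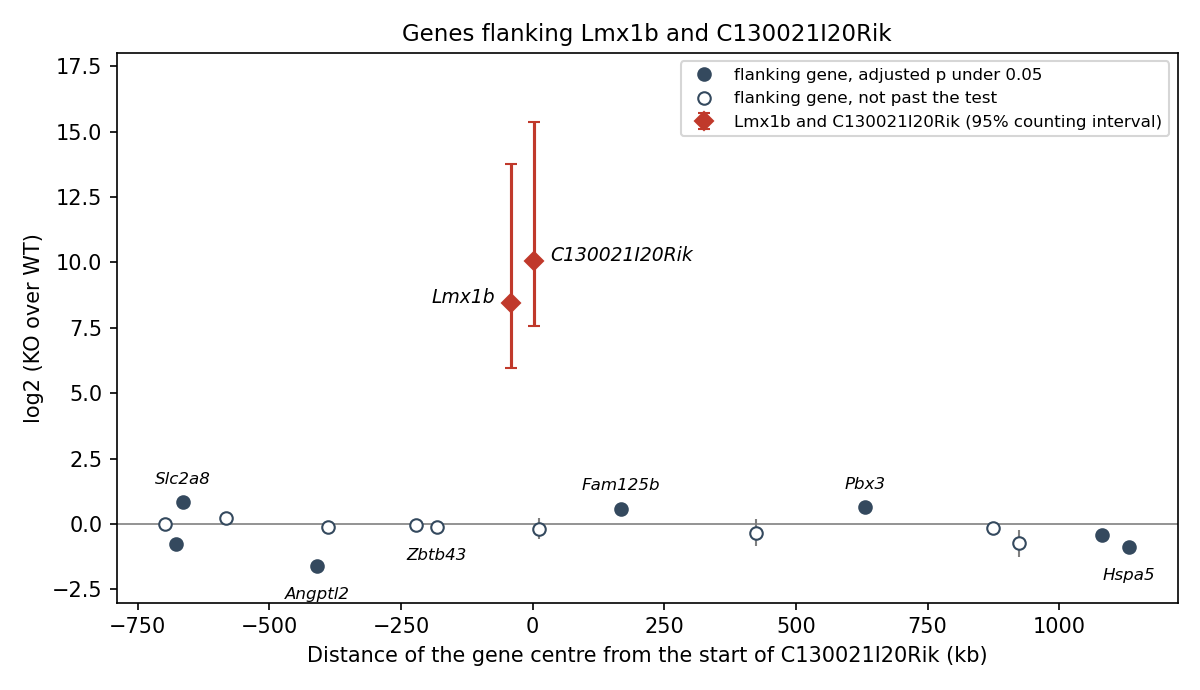
The log2 of KO over WT against the distance of each gene's centre from the start of *C130021I20Rik* in kb, for the tested flanking genes (fitted fold change with its SE) and for *Lmx1b* and *C130021I20Rik* (ratio of summed counts with its 95% counting interval). *Angptl2* is lowest and *Slc2a8*, at 0.83, is highest among the flanking genes, and the lower bounds of the pair lie above all of them.

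The same window around *Lmx1a*, the paralogue that stayed at the floor, held 12 tested genes, of which 8 were higher, 1 was lower and 3 did not pass, with a median of 0.49. *Rgs5*, a regulator of G protein signalling found in pericytes, lies 1806759 bases from *Lmx1a*. It had 448 and 333 counts in KO and 64 and 62 in WT, a rise of 2.57 (SE 0.17) and the only one past the stricter limits. *Hsd17b7*, of cholesterol synthesis, rose by 0.91 and *Rgs4* by 0.70, while *Uck2*, a uridine-cytidine kinase, fell by 0.56 in the larger of the 2 entries with that symbol. *Rxrg*, the nearest gene at 49615 bases, had at most 1 count in any library. Without KO replicate 1 the higher count was 5; *Mgst3*, *Ddr2* and *3110045C21Rik*, at rises of 0.43, 0.17 and 0.79, were the ones lost. *3110045C21Rik* overlaps *Ddr2* by position, so its reads are uncertain.

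*Lmx1b* and *C130021I20Rik* are 1 case of a common layout, in which neighbouring genes on opposite strands start within 1 kb of each other. Among 1209 other such pairs in the mm9 annotation both genes were tested in 936. In 139 pairs (14.9%) both were higher, in 143 (15.3%) both were lower, in 111 (11.9%) they moved in opposite directions and in 543 (58.0%) at least 1 gene did not pass. At the stricter limits 20 pairs had at least 1 gene higher and 7 had both. With starts up to 2 kb apart these were 29 and 11. With starts within 1 kb, shared rises past the stricter limits were thus few among divergent pairs. Of the 20 pairs with at least 1 gene past them upwards, 7 had both. Over all genes tested 5.79% passed these limits upwards, which is a share per gene. The 20 pairs already hold a gene past the limits, so that share is no background for the 7. Whether partners rose together more often than other genes was not tested.

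The 7 pairs, named for their values, included genes of the same kind as *Lmx1b*. *Emx2*, a homeobox gene of forebrain and limb girdle, rose by 3.22 and its divergent lincRNA *Emx2os* by 4.63, with starts 55 bases apart. *Vax2*, a homeobox gene of the ventral eye, and the lincRNA *Vax2os1* rose by 2.77 and 2.25. *Cited1*, a transcriptional coactivator, rose by 5.14, and the lincRNA *Gm14858* opposite it had 16 and 13 counts in KO and none in WT, at least 9.34-fold higher. *Dio3*, the thyroid hormone inactivating deiodinase, and *Dio3os* rose by 2.69 and 2.81. The others were *Klhl29* with *2810032G03Rik*, *2010002M12Rik* with *Ifit1*, and *S1pr1* with *Gm9889*. A lincRNA stood opposite a protein-coding gene in 4 of the 7, as it does for *Lmx1b*, and in 175 (18.7%) of the 936 pairs; the 7 were picked by value, so this is a description only. The library kit keeps the strand, but which strand setting was used to count reads is unknown here.

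**Figure D4:**
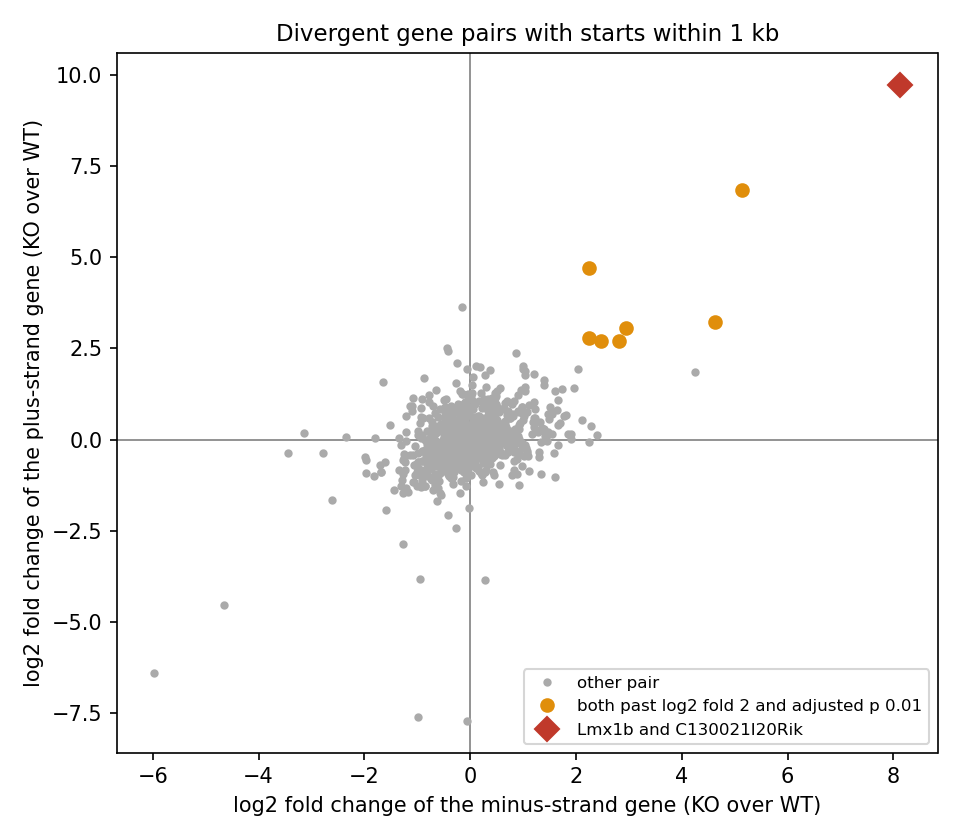
Fitted log2 fold change (KO over WT) of the plus-strand gene against that of the minus-strand gene for divergent pairs with starts within 1 kb and both genes tested. The *Lmx1b* pair (diamond) lies at the far upper right, beyond the 7 other pairs in which both genes passed the stricter limits (orange), though its fitted folds rest on 1 WT read each; those of *Gm14858* and *Gm9889* rest on 0 and 2.

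Genes with the shape of *Lmx1b*, near silence in WT and many reads in KO, were counted with its own counts as limits. These limits were set with its values known, so the counts are a description only. Genes of a like shape fell just outside them, such as *En2* (1122 KO and 3 WT counts) and *Frmpd4* (347 and 1). Of 3429 genes with at most 1 count over the WT libraries, 8 had at least the 360 KO counts of *Lmx1b*: *Lmx1b*, *C130021I20Rik*, *Hoxa13*, *Hs3st1*, *Ptprq*, *Scml2*, *Syt14* and *Tmem132e*. Of these 3 had at least the KO counts of *C130021I20Rik*, the other two being *Hs3st1*, a heparan sulphate sulphotransferase, with 781 and 763, and *Tmem132e*, a transmembrane protein gene, with 685 and 657. *Lmx1b* and *C130021I20Rik* were the only 2 of the 8 that share a locus. In the opposite direction 7 genes had at most 1 KO count and at least 360 WT counts: *Cd200*, *Galnt3*, *Ifi202b*, *Pcdh11x*, *Tcfl5*, *Tmco4* and *Tmem35*. In all, 43% of genes tested had both KO libraries above both WT libraries, and 39.8% had both below.

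By Euclidean distance between profiles of log2(CPM + 0.1) over the 4 libraries, *Lmx1b* was nearest to *Frmpd4*, a scaffold gene of the synapse, at a distance of 0.13 with 190 and 157 counts in KO and 1 and 0 in WT. *Srrm4*, a splicing factor of neurons (0.40, with 154 and 169 against 0 and 0), *Iigp1*, an interferon-induced GTPase (0.43), *Ptprq*, a phosphatase of the inner ear hair bundle (0.47), and *Edn3*, the endothelin ligand of neural crest (0.51), followed. *C130021I20Rik* was nearest to *Hoxa13* (0.41) and *En2* (0.41), then to *Tmem132e* (0.51), *Chl1*, a neural cell adhesion gene (0.61), and *Myocd*, the coactivator of smooth and heart muscle genes (0.63). The measure weighs the level as well as the on and off shape, so the partners of the pair, 2.23 apart, stood at rank 94 and rank 37 from each other among 16940 genes. Likeness over 4 libraries of 2 genotypes describes these profiles and no more.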

How the data were processed

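RNA was purified from subconfluent MEF cultures and sequenced as stranded, ribosomal RNA-depleted libraries (2 KO, 2 WT). Per the labels, the authors used CASAVA 1.8.2, TopHat2 and Bowtie on mm9, HTSeq 0.5.4p3 for gene counts and DESeq, with no strand setting named. The deposited raw read counts per gene were used as they stand. The authors' normalised values, per-kb values and comparison columns (fold changes and p-values) were not used. 23393 of 23537 identifiers were found in the GENCODE annotation of mm9 used here for positions and exon lengths, which need not equal the authors' gene models. Promoter windows came from RefSeq (GRCm38.p6; all 3 genes matched, each found once in mm9). Protein sequences were not used here.

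The 15538 genes left by filterByExpr (7999 removed) were fitted with edgeR 4.0.16 (R 4.3.3; TMM scaling, quasi-likelihood test, genotype only) and p-values were adjusted by Benjamini-Hochberg over all of them; "higher", "lower", "rose" and "fell" mean an adjusted p under 0.05. The stricter limits were an adjusted p under 0.01 and a log2 fold change beyond 2. No fitted fold is given for genes with 3 counts or fewer in a genotype; these have the ratio of summed counts, scaled by summed TMM library sizes, with an exact 95% counting interval, or a bound against a floor of 3 counts over the group. CPM used TMM library sizes. The fit was tested on simulated data with 1 mean per gene pooled over the 4 libraries and 1 common spread for all genes. Genes to be changed were drawn only from those not low in counts. At a true log2 fold of 1 the fit called 92 of 100 genes and at 2 it called 100 of 100, with 14 false calls among 15247 genes. Recovery at low counts and a spread that differs between genes were not covered. Replicates differed beyond counting noise (chi-square per gene 6.00 in KO and 12.4 in WT), so none was treated as a duplicate. An exact permutation test of 2 against 2 libraries cannot go below p = 0.333. The alternatives were DESeq2 1.42.0, RLE size factors, library totals, no filter, a replicate block and leaving out each library.

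The 3 genes, the 8 lists, the 9 marker lists and all rules were chosen with earlier results of these data known; lists came from textbook knowledge. Genes named were the members, the 10 nearest genes on each side, up to 3 largest rises and falls and the most abundant gene per list, the 5 nearest profiles per gene of the pair (mean of at least 0.1 CPM) and *Mbd4*; other names were chosen after their values were seen. Some genes covered by this rule are not reported here.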

Additional observations from a re-analysis of the deposited data

How the results depend on the processing

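Under the alternatives, 1413 of 1463 values kept their direction and their side of the threshold over 163 tested genes (those of the lists, flanks, nearest profiles, on and off genes and divergent pairs with both genes past the stricter limits, and *Mbd4*), 35 values of 12 genes lost the call, 15 values of 12 genes gained one and 0 reversed. With a library left out, the ratios of *Lmx1b* and *C130021I20Rik* ran from 55.2 to 359 and from 167 to 1151; the lower ends are bounds without WT replicate 1, and without WT replicate 2 the ratios were 177 and 537. With all libraries, other scalings and filters put them at 341 to 386 and 1034 to 1169, the highest with library totals. Leaving out 1 library moved the higher count from 8 to between 5 and 8 for the *Lmx1a* flanks, from 5 to between 3 and 5 for podocyte genes, and from 5 to between 3 and 5 for dopaminergic and serotonergic genes, and the lower count from 2 to between 2 and 4 for periocular and cornea genes. In DESeq2 the dopaminergic and serotonergic list had 3 genes higher. With library totals the cofactor list had 2 genes lower and the periocular list 2 genes higher; these totals moved the median over all genes from 0.02 to 0.17 (log2) and the calls over all genes from 5335 higher and 5045 lower to 6628 and 3964, as their construction does. The cause of the other shifts was not tested.

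Replicate numbers did not pair the samples (correlation of deviations between KO replicate 1 and WT replicate 1 -0.029, over 15538 genes). The fit with the replicate block called 5299 genes higher and 4999 lower, and it changed no call among the 163 genes. Depth limits the WT side most: with 1 and 0 reads, neither the fold nor the balance of the pair in WT can be set more closely.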
